A study of Mus musculus with 8 samples.

Results

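The 150 genes described here are the protein-coding mouse genes that are named Zfp and a number and that were expressed in mature eggs. Of 364 genes with such a symbol in the GENCODE M21 annotation (1 further gene is left out by the selection), 350 were listed in the deposited tables, 14 were not, and 150 averaged 1 FPKM or more across the 8 libraries. FPKM are fragments counted per length of transcript and per depth of the library, a level corrected for gene length. The mean over all 8 libraries chose the genes, so their overall level is a description. The genotype labels were not used in setting this limit. Even so, 18 of the genes passed it with a mean under 1 FPKM in 1 genotype, which favours a difference in them. The libraries were made from metaphase II (MII) oocytes, the ovulated eggs arrested in the second meiotic division, of C57BL/6 females at postnatal day 42. Of these, 4 libraries came from females labelled Esrp1-KO (genotype Esrp1-/-, with no conditional allele or Cre driver named) and 4 from wild-type (WT) females, each library being a tube of 15 oocytes. ESRP1 regulates alternative splicing by binding RNA, and the comparison asks what differs in eggs of females without it. The design text calls the libraries biological replicates and does not say whether tubes shared a female, and p-values therefore refer to the variation among tubes.

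Most Zfp genes encode proteins with C2H2 zinc fingers, short folds held by a zinc ion that read a few bases of DNA each. The fingers often stand in long arrays. The 150 genes were chosen by symbol, and 6 of them had no match to the finger pattern. In mammals the largest class also carries a KRAB box, which recruits the corepressor TRIM28 and with it histone methylation and heterochromatin. KRAB zinc finger genes multiplied by tandem duplication and lie in clusters on a few chromosomes, and many of their known targets are retrotransposons and imprinted regions. Eggs carry the mRNAs of such proteins into the embryo. Other Zfp proteins have no KRAB box and bind RNA, promoters or ubiquitin pathway partners.

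Esrp1 itself (chromosome 4, 11331933 to 11386783, minus strand, GRCm38) had 3.62, 3.43, 2.31 and 3.83 FPKM in the Esrp1-KO libraries, against 17.1, 17.2, 19.5 and 16.2 FPKM in the WT libraries (limma log2 fold change −2.12 ± 0.15 SE, adjusted p = 1.32e-05). The read totals by which the FPKM were scaled, inferred from the values, were 24910433 to 32337966 in Esrp1-KO and 25018182 to 28932109 in WT. Reads summed over genes came out higher than these totals in every library (33643941 against 32337966 in Esrp1-KO replicate 1). Oocyte markers summed to 9632 to 11317 FPKM in Esrp1-KO and 8001 to 8950 FPKM in WT, with 12 of 13 at 1 FPKM or more. These oocyte sums did not overlap between genotypes, although not every oocyte marker was higher in Esrp1-KO. Markers of granulosa and cumulus cells also moved with genotype: the 14 of 18 that were listed summed to 4.26 to 5.86 FPKM in Esrp1-KO and 9.39 to 12.3 FPKM in WT. That sum was mostly Cyp19a1, Kitl and Nr5a2 (Cyp19a1 1.35 to 2.31 FPKM in Esrp1-KO and 5.46 to 7.07 FPKM in WT). The other 11 stayed at or below 0.51 FPKM in every library and summed to 0.503 to 0.994 FPKM in Esrp1-KO and 0.255 to 0.396 FPKM in WT, the opposite direction. Of the 14, 5 were above 0 in all 8 libraries, Has2 and Ptgs2 among them, while Fst, Fshr, Ptx3 and Tnfaip6 were above 0 in 1 library each. Blood and immune markers summed to 1.92 to 11.2 FPKM in Esrp1-KO and 1.201 to 2.16 FPKM in WT, the highest in Esrp1-KO replicate 3. Of these markers, H2-Aa alone was without overlap, at 1.30 to 2.07 FPKM in Esrp1-KO and 0.661 to 0.959 FPKM in WT. Genes of the embryo at genome activation summed to 31.6 to 43.1 FPKM in Esrp1-KO and 31.0 to 47.8 FPKM in WT. The part of these other cell types in the results below was not tested. In pooled oocytes, fewer transcripts per egg and fewer eggs with the transcript cannot be told apart.

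More of the expressed Zfp genes were lower than higher in Esrp1-KO eggs. Of the 150, 54 (36%) were lower and 12 (8%) were higher at an adjusted p under 0.05 (limma on log2(FPKM + 1), Benjamini-Hochberg over 8021 genes), and 84 did not pass. Among all 8021 genes tested, 23.1% were lower and 13.9% were higher. The median log2 fold change, Esrp1-KO over WT, was −0.27 over the 150 genes and −0.06 over all genes tested, and 105 of the 150 lay below 0. In 64 of the 150 (42.7%), all 4 values of a genotype lay on one side of the other 4, against 36.8% of all genes tested. The log2 fold changes of the 54 ran from −2.10 to −0.41, and in 25 of them the Esrp1-KO mean was at most 50% of the WT mean. Those of the 12 ran from 0.37 to 1.18, and 3 of them reached 2-fold.

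The lead of lower over higher calls held under other scalings, by less. With TMM scaling 43 genes were lower and 18 higher (19% and 18.3% of all genes), with quantile normalization 42 and 19 (19.3% and 18.5%), and with median-ratio scaling 46 and 18 (19.4% and 17.8%). The median of the 150 stayed below 0, at −0.17, −0.16 and −0.17, while that of all genes became 0.03, 0.03 and 0.02. Of the 54 lower genes, 39 stayed called under all 3 scalings and 39 in each of the 8 fits that left out a library. Of the 12 higher genes, 11 stayed called under all 3 scalings and 6 in each of the 8 fits. Within replicates 1 and 4 alone, 36 were lower and 8 higher (16.8% and 8.43% of all genes), with a median of −0.22. Within replicates 2 and 3 alone, 27 were lower and 3 higher (11.3% and 7.28% of all genes), with a median of −0.27.

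The choice at 1 FPKM let in genes that were high in a single genotype. Both group means were at least 1 FPKM in 132 of the 150, of which 45 (34.1%) were lower and 11 (8.33%) higher. Among all 8021 genes tested, 23.1% were lower and 13.9% higher, but these were not limited to genes with both group means at 1 FPKM or more. In the other 18, 9 were lower and 1 was higher, a count that the choice favours. The 18 include Zfp819, Zfp809, Zfp24, Zfp770, Zfp937 and Zfp992, with a mean under 1 FPKM in Esrp1-KO alone, and Zfp346, with one in WT alone, so for them the choice leans toward a difference. The genes just inside the limit were Zfp972 (mean 1.001 FPKM), Zfp346 (1.004) and Zfp329 (1.04), and those just outside it were Zfp595 (0.997), Zfp622 (0.987) and Zfp652 (0.973). Of the 200 listed genes below the limit, 5 had an Esrp1-KO mean and 13 a WT mean of at least 1 FPKM.

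Levels were uneven. Over the 8 libraries, 40 genes had a mean of at least 10 FPKM, 52 lay between 3 and 10 and 58 between 1 and 3, with a median of 3.72 FPKM. The FPKM of the 150 summed to 1464 to 1710 in the Esrp1-KO libraries and to 1972 to 2083 in the WT libraries, and the groups did not overlap. The median gene stood at 3.40 to 3.78 FPKM in Esrp1-KO and at 4.43 to 4.83 FPKM in WT. The spread between replicates was similar, with a median coefficient of variation of 18.5% in Esrp1-KO and 15.2% in WT. The share of lower calls was 42.5% at 10 FPKM or more, 34.6% at 3 to 10 and 32.8% at 1 to 3, where other genes had 22.1%, 23.8% and 22.6%.

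**Figure D1:**
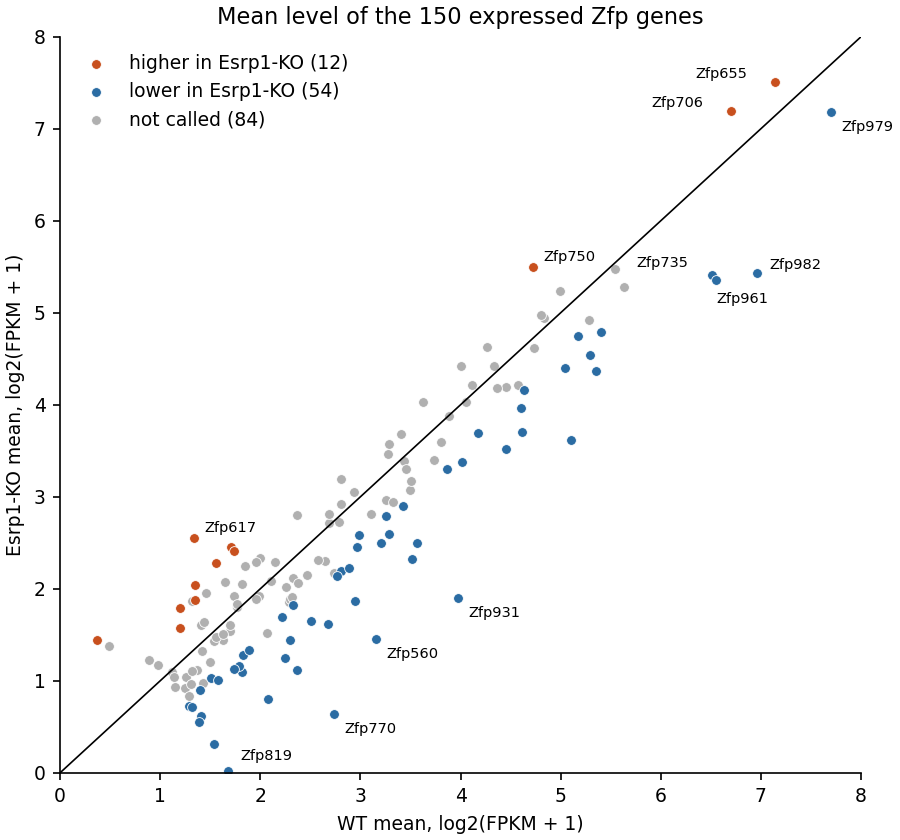
Mean log2(FPKM + 1) of each of the 150 expressed Zfp genes in Esrp1-KO libraries (vertical axis) and WT libraries (horizontal axis), 4 libraries each; the line marks equal levels. The 54 genes called lower lie under the line at every level, and the 12 called higher lie above it.

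The 6 genes with the highest means made up 36.9% of the summed level: Zfp979, Zfp655, Zfp706, Zfp982, Zfp735 and Zfp961. The 4 that carry a KRAB box by sequence, Zfp979, Zfp982, Zfp735 and Zfp961, were lower in Esrp1-KO, and the 2 without, Zfp655 and Zfp706, were higher. Zfp982 had 43.4, 33.99, 47.9 and 43.8 FPKM in the Esrp1-KO libraries, against 108, 140.1, 142 and 105 FPKM in the WT libraries (log2 fold change −1.52 ± 0.16 SE, adjusted p = 9.54e-05). The groups lay well apart, with the highest Esrp1-KO library under the lowest WT library. Zfp961 had 42.7, 32.9, 37.5 and 46.2 FPKM in the Esrp1-KO libraries, against 93.3, 85.3, 90.1 and 104 FPKM in the WT libraries (log2 fold change −1.21 ± 0.13 SE, adjusted p = 0.000142). Zfp735 had 42.1, 33.98, 43.3 and 46.9 FPKM in the Esrp1-KO libraries, against 88.3, 83.1, 94.9 and 94.1 FPKM in the WT libraries (adjusted p = 0.000180). Both fell to less than 50% of the WT mean without overlap. The most abundant, Zfp979, had 124, 121, 138 and 192 FPKM in the Esrp1-KO libraries, against 214, 210.1, 220.1 and 184 FPKM in the WT libraries (log2 fold change −0.55 ± 0.16 SE, adjusted p = 0.0218). Its groups overlapped, since Esrp1-KO replicate 4 lay above WT replicate 4, and the call was lost without WT replicate 1 or 3 (adjusted p up to 0.0573) and with TMM (adjusted p = 0.0680) or median-ratio scaling (0.0585).

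Zfp655 had 205, 167, 165 and 188 FPKM in the Esrp1-KO libraries, against 146, 146, 128 and 140.2 FPKM in the WT libraries (log2 fold change 0.37 ± 0.12 SE, adjusted p = 0.0322). Its rise was modest and without overlap, and its call was lost without Esrp1-KO replicate 1 or 4 or WT replicate 1, 3 or 4 (adjusted p up to 0.0868), with quantile normalization (0.0603) and without a filter on low values (0.054). Zfp706, which encodes a small protein of 76 residues with a single finger, had 160.0, 126, 157 and 138 FPKM in the Esrp1-KO libraries, against 98.2, 112, 99.4 and 102 FPKM in the WT libraries (log2 fold change 0.49 ± 0.12 SE, adjusted p = 0.00959). It stayed called without any single library.

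The largest falls on the log2(FPKM + 1) scale were those of Zfp931, Zfp770, Zfp560 and Zfp819. Zfp931 (ENSMUSG00000078861, chromosome 2, 178067695 to 178078476, minus strand), a KRAB gene with 7 fingers, had 1.88, 3.65, 3.28 and 2.14 FPKM in the Esrp1-KO libraries, against 13.9, 16.1, 15.05 and 14.0 FPKM in the WT libraries (log2 fold change −2.10 ± 0.17 SE, adjusted p = 2.74e-05). Zfp770 (ENSMUSG00000040321, chromosome 2, 114193461 to 114201469, minus strand), which has 10 fingers and no KRAB box, had 0.524, 0.632, 0.586 and 0.489 FPKM in the Esrp1-KO libraries, against 5.68, 5.53, 5.75 and 5.71 FPKM in the WT libraries (log2 fold change −2.10 ± 0.11 SE, adjusted p = 6.52e-06). Its WT libraries differed by little, and the Esrp1-KO mean was 9.84% of the WT mean. Zfp770 reached the limit of 1 FPKM through the WT libraries alone, so the choice favours its fall. Zfp560 (ENSMUSG00000045519, chromosome 9, 20345136 to 20385177, minus strand), a KRAB gene with 15 fingers, had 1.58, 1.78, 1.46 and 2.11 FPKM in the Esrp1-KO libraries, against 7.81, 7.49, 8.27 and 7.99 FPKM in the WT libraries (log2 fold change −1.71 ± 0.12 SE, adjusted p = 1.36e-05).

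Zfp819 (ENSMUSG00000055102, chromosome 7, 43607169 to 43618285, plus strand), a KRAB gene whose protein binds TRIM28 in mouse embryonic stem cells, was close to 0 in Esrp1-KO eggs. It had 0, 0.0488, 0.0141 and 0 FPKM in the Esrp1-KO libraries, against 1.72, 2.38, 2.51 and 2.16 FPKM in the WT libraries (log2 fold change −1.65 ± 0.13 SE, adjusted p = 2.04e-05). These values stood for 0, 3, 1 and 0 reads in Esrp1-KO and for 112, 147, 174 and 154 reads in WT. Per inferred library read, the Esrp1-KO reads came to 0.647% of the WT reads (exact 95% interval 0.176% to 1.67%, for counting error only). Zfp819 reached the limit of 1 FPKM through the WT libraries alone, so the choice favours this difference.

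The other 8 of the 12 largest falls were Zfp982 and Zfp961 above, with Zfp978, Zfp24, Zfp994, Zfp992, Zfp759 and Zfp563. Zfp978 averaged 11.3 ± 2.72 FPKM in Esrp1-KO and 33.3 ± 7.96 FPKM in WT (SD, n = 4 each). It shares 77.4% of its 50-base stretches with transcripts of other genes, so reads may have been split between copies. Zfp24, a SCAN-type gene without a KRAB box, averaged 0.745 ± 0.306 FPKM in Esrp1-KO and 3.21 ± 0.560 FPKM in WT. Zfp994 averaged 1.16 ± 0.330 FPKM in Esrp1-KO and 4.15 ± 1.34 FPKM in WT, and Zfp992 averaged 0.245 ± 0.0910 FPKM in Esrp1-KO and 1.91 ± 0.385 FPKM in WT. Zfp992 shares 43.0% of its stretches. Zfp759, with 19 fingers, averaged 4.004 ± 0.948 FPKM in Esrp1-KO and 10.4 ± 0.937 FPKM in WT. Each of these was lower in all 4 Esrp1-KO libraries than in any WT library, with adjusted p between 0.000169 and 0.00150 (limma). Zfp24 and Zfp992 reached the limit of 1 FPKM through the WT libraries alone, so the choice favours their falls.

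**Figure D2:**
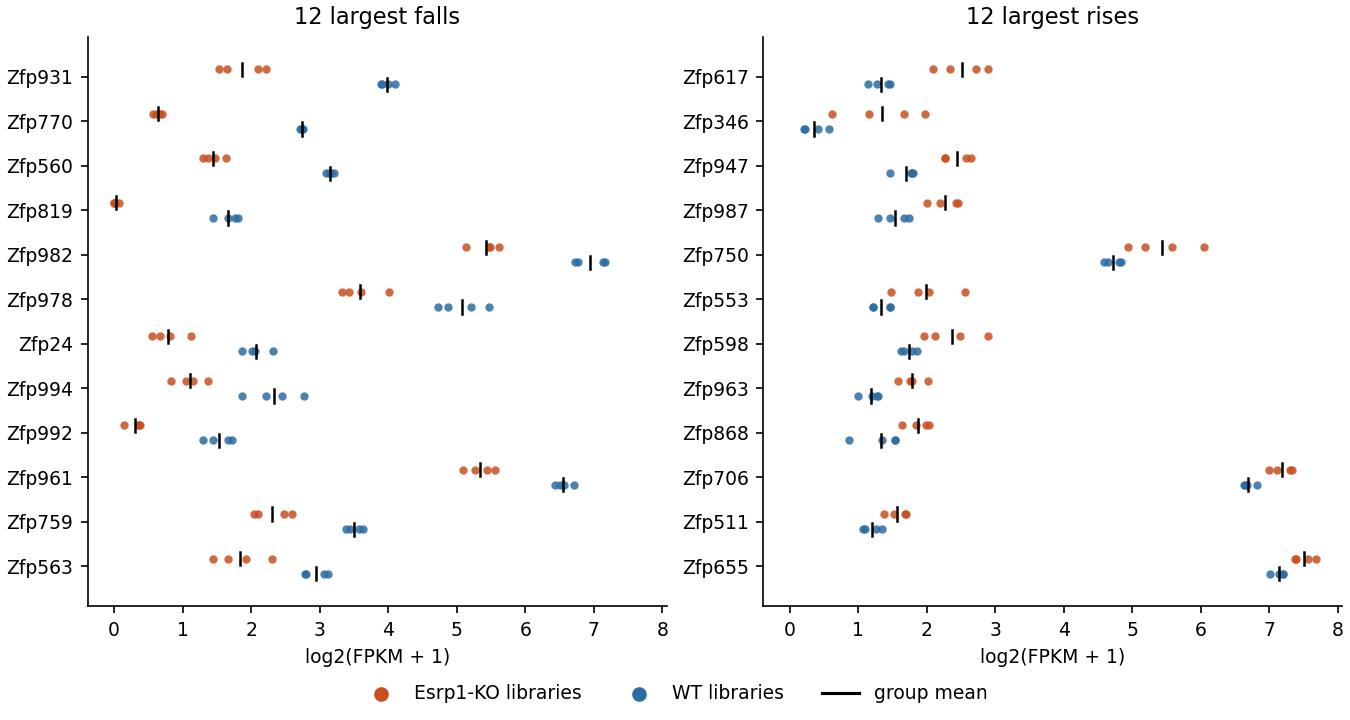
log2(FPKM + 1) in every library for the 12 largest falls (left) and 12 largest rises (right) among called genes with non-overlapping groups; points are libraries, Esrp1-KO above WT in each row, and bars are group means. The Esrp1-KO points of Zfp819 lie at or next to 0, and those of Zfp982 and Zfp961 lie left of WT at high levels.

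The 12 genes called higher were Zfp617, Zfp346, Zfp947, Zfp987, Zfp750, Zfp553, Zfp598, Zfp963, Zfp868, Zfp706, Zfp511 and Zfp655, and all 12 were without overlap. Zfp617 (ENSMUSG00000066880, chromosome 8, 71908635 to 71934629, plus strand), a KRAB gene with 14 fingers, had 6.43, 3.28, 4.07 and 5.61 FPKM in the Esrp1-KO libraries, against 1.76, 1.71, 1.22 and 1.43 FPKM in the WT libraries (log2 fold change 1.18 ± 0.18 SE, adjusted p = 0.000953). It shares 42.2% of its stretches with other genes. Zfp346, which binds double-stranded RNA, had 2.93, 2.17, 0.543 and 1.23 FPKM in the Esrp1-KO libraries, against 0.490, 0.163, 0.170 and 0.331 FPKM in the WT libraries (log2 fold change 0.998 ± 0.26 SE, adjusted p = 0.0149). Its Esrp1-KO libraries ranged widely, and Esrp1-KO replicate 3 lay just above the highest WT library. Zfp346 reached the limit of 1 FPKM through the Esrp1-KO libraries alone, so the choice favours its rise. Zfp750, a regulator of epidermal differentiation in mouse and human skin, had 65.0, 29.5, 35.4 and 46.7 FPKM in the Esrp1-KO libraries, against 26.9, 23.1, 24.1 and 27.6 FPKM in the WT libraries (log2 fold change 0.72 ± 0.22 SE, adjusted p = 0.0279). Zfp987 averaged 3.86 ± 0.705 FPKM in Esrp1-KO and 1.94 ± 0.413 FPKM in WT and shares 89.0% of its stretches. Zfp947 averaged 4.47 ± 0.748 FPKM in Esrp1-KO and 2.27 ± 0.349 FPKM in WT.

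Several rises depended on single libraries. The call for Zfp750 was lost without Esrp1-KO replicate 4 or WT replicate 2 or 3 (adjusted p up to 0.0706), and that for Zfp598 without Esrp1-KO replicate 2 or 3 or WT replicate 1, 3 or 4 (up to 0.0739). That for Zfp868 was lost without Esrp1-KO replicate 1, 3 or 4 or WT replicate 2 or 3 (up to 0.0850), and that for Zfp511 without Esrp1-KO replicate 1, 2 or 3 or WT replicate 1, 2 or 4 (up to 0.122). Zfp553 lost its call without any library but Esrp1-KO replicate 3 (up to 0.0803). Zfp617, Zfp346, Zfp947, Zfp987, Zfp963 and Zfp706 stayed called without any single library.

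Grouped by position, 86 of the 150 genes lay in clusters, taken as runs of at least 3 Zfp genes, expressed or not, with starts within 500 kb of the next. Genes with other symbols and shorter runs did not count, so genes outside clusters can still have related neighbours. Of the 86, 37 (43%) were lower and 6 higher, with a median log2 fold change of −0.40. Of the 64 genes outside clusters, 17 (26.6%) were lower and 6 higher, with a median of −0.13. Among all genes tested, 23.1% were lower and 13.9% higher, so the share lower outside clusters was near that of all genes. The annotation held 32 clusters, 25 of them with an expressed gene and 12 with at least 3, which together hold 67 of the 150. Among those 12, genes were called lower only in 7, both ways in 4 and in neither direction in 1, and none had higher calls alone. Counting only genes with both group means at 1 FPKM or more, these were 5, 4 and 3 clusters. The 76 other genes tested inside the spans of the 32 clusters had 21 lower (27.6%) and 7 higher, with a median of −0.05.

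**Figure D3:**
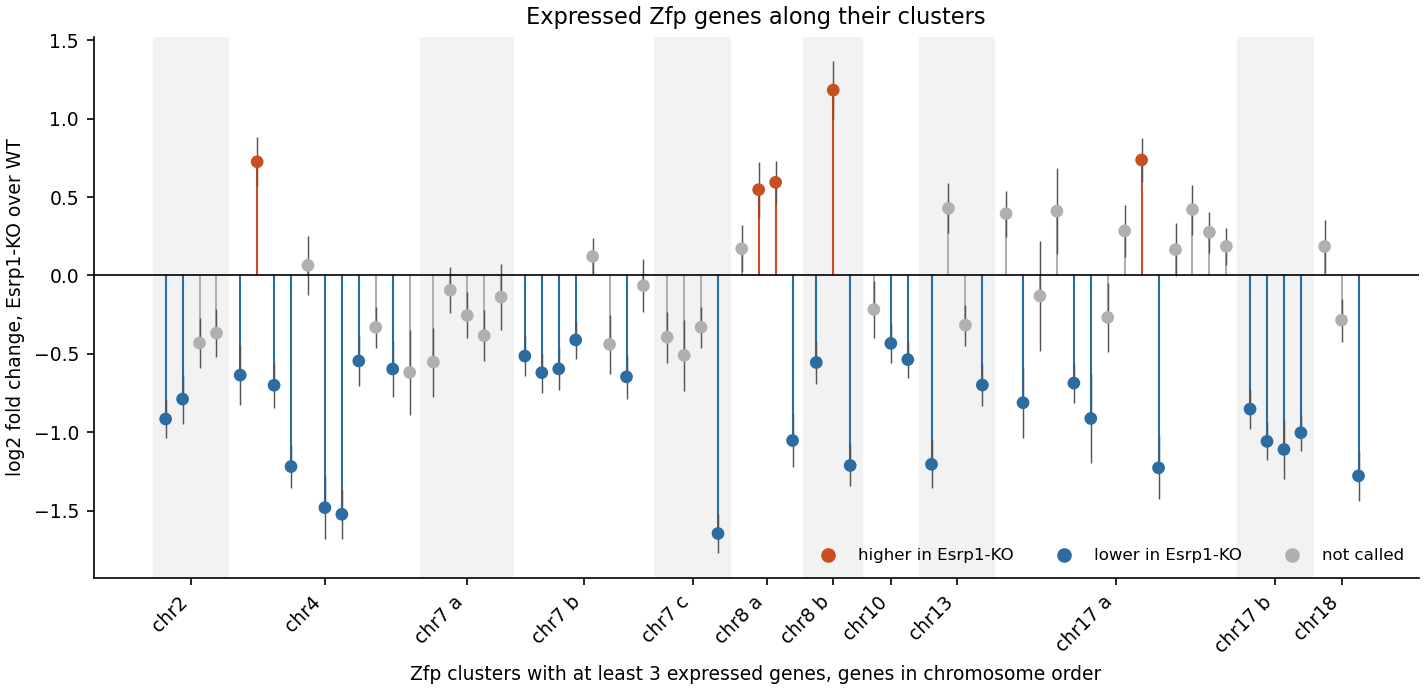
log2 fold change (Esrp1-KO over WT) ± SE of the 67 expressed genes in the 12 Zfp clusters with at least 3 of them, in chromosome order within each cluster; letters tell clusters of the same chromosome apart by position. In the chr17 b cluster all 4 genes were lower, while in chr17 a, chr4, chr8 a and chr8 b lower and higher genes stood side by side.

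In a cluster on chromosome 17 (32765496 to 33631779, the chr17 b cluster of the plot along clusters), all 4 expressed genes were lower in Esrp1-KO. Zfp472 had 2.004, 1.67, 1.69 and 1.52 FPKM in the Esrp1-KO libraries, against 3.88, 4.21, 4.41 and 3.20 FPKM in the WT libraries. Zfp952 had 4.16, 5.10, 4.59 and 4.76 FPKM in the Esrp1-KO libraries, against 9.94, 12.3, 9.72 and 11.3 FPKM in the WT libraries. Zfp563 had 3.93, 1.72, 2.17 and 2.80 FPKM in the Esrp1-KO libraries, against 7.68, 5.93, 5.98 and 7.34 FPKM in the WT libraries. None of these overlapped between genotypes. Zfp81 had 1.53, 1.15, 1.48 and 1.35 FPKM in the Esrp1-KO libraries, against 3.60, 3.99, 3.98 and 3.48 FPKM in the WT libraries. The log2 fold changes of the 4 were −0.85, −1.06, −1.11 and −1.003, with adjusted p of 0.000771, 0.000178, 0.00150 and 0.000179 (limma). All 4 calls held under every alternative in which the gene was tested. The other 2 genes tested in the span were also lower. The 4 share at most 2.15% of their stretches with other genes.

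Because these 4 genes moved together, their promoters are shown, from 250 bases before to 50 bases after the RefSeq start (GRCm38.p6), 5′ to 3′ on the gene's strand. Capitals mark CCAAT and its reverse complement ATTGG, the motif named after these letters and bound by the factor NF-Y. The positions are chr17:32965581-32965880 (plus strand) for Zfp472, chr17:32992889-32993188 (plus strand) for Zfp952, chr17:33089117-33089416 (plus strand) for Zfp563 and chr17:33358829-33359128 (minus strand) for Zfp81.
Zfp472: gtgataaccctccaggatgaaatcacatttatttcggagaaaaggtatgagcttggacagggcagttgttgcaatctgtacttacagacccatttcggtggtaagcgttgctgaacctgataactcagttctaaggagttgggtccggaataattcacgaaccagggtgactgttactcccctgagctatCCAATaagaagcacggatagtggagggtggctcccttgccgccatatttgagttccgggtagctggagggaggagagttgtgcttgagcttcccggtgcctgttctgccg
Zfp952: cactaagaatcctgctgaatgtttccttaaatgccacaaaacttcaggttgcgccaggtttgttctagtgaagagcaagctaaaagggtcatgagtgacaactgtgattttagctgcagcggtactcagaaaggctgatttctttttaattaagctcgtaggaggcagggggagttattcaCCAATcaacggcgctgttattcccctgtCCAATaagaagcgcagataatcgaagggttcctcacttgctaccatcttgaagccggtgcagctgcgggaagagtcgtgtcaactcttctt
Zfp563: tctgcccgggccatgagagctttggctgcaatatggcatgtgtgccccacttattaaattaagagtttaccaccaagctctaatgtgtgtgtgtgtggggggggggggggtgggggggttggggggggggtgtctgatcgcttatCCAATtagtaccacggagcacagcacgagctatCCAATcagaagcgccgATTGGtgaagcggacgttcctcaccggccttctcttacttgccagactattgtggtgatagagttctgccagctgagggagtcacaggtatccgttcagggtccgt
Zfp81: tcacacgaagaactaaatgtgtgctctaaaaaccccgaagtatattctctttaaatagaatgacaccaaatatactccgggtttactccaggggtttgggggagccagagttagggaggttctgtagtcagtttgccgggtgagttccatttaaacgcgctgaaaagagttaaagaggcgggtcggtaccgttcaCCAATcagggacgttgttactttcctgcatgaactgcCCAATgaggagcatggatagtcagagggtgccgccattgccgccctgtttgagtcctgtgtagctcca
The motif stood 1, 2, 3 and 2 times in these windows. In a global alignment the windows were 49.4% to 57.4% identical to each other.

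Promoters were found by symbol, chromosome and strand for 126 of the 150 genes. CCAAT, on either strand, was in 69.6% of the 46 promoters of lower genes, in 60% of the 10 of higher genes and in 42.9% of the 70 not called. It was in 54% of the 126, and in 37.4% of all 32851 promoters in the RefSeq table. GGGCGG, the core of a GC box, on either strand, was in 37% of the lower, 90% of the higher and 47.1% of the not called genes, and in 35.7% of all promoters. TATAAA, on either strand, was in 3.17% of the 126 and in 13.6% of all promoters. Neighbouring matches of different motifs may share letters at their ends. These motifs and the windows printed were picked after the fold changes and the matches had been seen, so the shares are descriptions. Promoters within a cluster may also resemble each other. Only the windows printed were aligned, with no unrelated promoters for comparison.

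The chromosome 4 cluster (145510759 to 147848366) held 11 expressed genes, of which 7 were lower and 1, Zfp987, was higher. Its genes summed to 236.5 FPKM in Esrp1-KO and 419.9 FPKM in WT, with a median log2 fold change of −0.62. Besides Zfp982, Zfp979, Zfp978 and Zfp992 above, Zfp600 had 1.06, 1.32, 1.11 and 1.08 FPKM in the Esrp1-KO libraries, against 2.50, 2.52, 3.24 and 1.80 FPKM in the WT libraries (log2 fold change −0.70 ± 0.14 SE, adjusted p = 0.00446). Zfp989, at 2.56 ± 0.675 FPKM in Esrp1-KO and 2.40 ± 0.609 FPKM in WT, did not pass. In 9 of the 11, over 20% of the 50-base stretches occur in other genes, 81.2% in Zfp600, so values of single genes there are uncertain; Zfp982, at 11.9%, is the least shared of those named. The promoters of the neighbours Zfp982 (chr4:147492167-147492466, plus strand) and Zfp979 (chr4:147642459-147642758, minus strand), whose Esrp1-KO means were 34.2% and 69.4% of WT, are shown for comparison.
Zfp982: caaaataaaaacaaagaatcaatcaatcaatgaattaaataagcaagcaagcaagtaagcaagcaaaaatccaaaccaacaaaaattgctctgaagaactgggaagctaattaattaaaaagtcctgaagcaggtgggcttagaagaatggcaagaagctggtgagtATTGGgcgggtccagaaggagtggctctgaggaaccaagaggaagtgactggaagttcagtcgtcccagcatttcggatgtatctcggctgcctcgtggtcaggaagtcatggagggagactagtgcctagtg
Zfp979: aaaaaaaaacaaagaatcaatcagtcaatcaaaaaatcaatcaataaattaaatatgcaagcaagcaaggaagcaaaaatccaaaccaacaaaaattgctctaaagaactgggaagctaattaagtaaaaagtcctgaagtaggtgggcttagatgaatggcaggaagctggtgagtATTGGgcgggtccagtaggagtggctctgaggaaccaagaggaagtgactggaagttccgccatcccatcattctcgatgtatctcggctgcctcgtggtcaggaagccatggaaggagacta
They were 84.9% identical, and each held the motif once.

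The proximal chromosome 17 cluster (21008903 to 23599487), with 14 expressed genes, was divided. Zfp947 was higher and 4 genes (28.6%) were lower, a share near the 23.1% of all genes tested. The median log2 fold change of the 14 was 0.18. Zfp229 had 5.06, 5.48, 5.17 and 4.42 FPKM in the Esrp1-KO libraries, against 8.97, 7.498, 10.04 and 8.42 FPKM in the WT libraries (log2 fold change −0.69 ± 0.12 SE, adjusted p = 0.00222), and Zfp994 lay at 28.0% of WT. Zfp947 and Zfp994 are neighbours among the expressed genes of the cluster, and their log2 fold changes were 0.74 and −1.23. They share 20.05% and 18.2% of their stretches with other genes.

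A pair of clusters on chromosome 8 also held calls in both directions. In the distal one (71882019 to 71993792), Zfp617 was higher while Zfp709 on one side and Zfp961 on the other were lower. Zfp709 had 1.69, 1.004, 1.67 and 1.37 FPKM in the Esrp1-KO libraries, against 2.18, 2.52, 2.97 and 2.57 FPKM in the WT libraries (log2 fold change −0.55 ± 0.14 SE, adjusted p = 0.0115). The Esrp1-KO means were 317% of WT for Zfp617, 55.9% for Zfp709 and 42.8% for Zfp961. The promoters of the 3 neighbours follow, at chr8:71881818-71882117 for Zfp709, chr8:71922575-71922874 for Zfp617 and chr8:71950816-71951115 for Zfp961, all on the plus strand.
Zfp709: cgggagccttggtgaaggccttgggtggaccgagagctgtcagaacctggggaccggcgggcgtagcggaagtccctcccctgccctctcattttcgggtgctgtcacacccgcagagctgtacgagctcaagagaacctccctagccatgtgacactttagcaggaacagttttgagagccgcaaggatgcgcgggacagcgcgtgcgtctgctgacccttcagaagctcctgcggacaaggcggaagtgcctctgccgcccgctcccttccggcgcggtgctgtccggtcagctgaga
Zfp617: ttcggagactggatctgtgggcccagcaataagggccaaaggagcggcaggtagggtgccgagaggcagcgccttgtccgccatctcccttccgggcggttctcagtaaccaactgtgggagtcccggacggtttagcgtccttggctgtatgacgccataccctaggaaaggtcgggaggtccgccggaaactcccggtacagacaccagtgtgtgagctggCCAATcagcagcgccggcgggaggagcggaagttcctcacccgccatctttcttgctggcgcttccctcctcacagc
Zfp961: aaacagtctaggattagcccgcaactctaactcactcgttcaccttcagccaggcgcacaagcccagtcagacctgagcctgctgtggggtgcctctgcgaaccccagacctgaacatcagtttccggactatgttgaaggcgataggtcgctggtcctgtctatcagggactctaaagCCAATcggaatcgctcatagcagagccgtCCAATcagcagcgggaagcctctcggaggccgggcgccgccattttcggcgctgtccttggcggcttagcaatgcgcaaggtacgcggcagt
CCAAT stood 0, 1 and 2 times in them, and the windows were 50.8% to 58.3% identical. The RefSeq start of Zfp617 lies 14190 bases from the M21 gene start. In the proximal cluster (69209038 to 69791178), Zfp868 and Zfp963 were higher and Zfp866 was lower. Zfp963 had 3.05, 1.99, 2.37 and 2.46 FPKM in the Esrp1-KO libraries, against 1.30, 1.44, 1.004 and 1.41 FPKM in the WT libraries (log2 fold change 0.59 ± 0.14 SE, adjusted p = 0.00744) and shares 39.4% of its stretches. Zfp866 had 2.68, 1.68, 1.78 and 2.17 FPKM in the Esrp1-KO libraries, against 5.72, 6.43, 3.79 and 5.71 FPKM in the WT libraries (log2 fold change −1.05 ± 0.17 SE, adjusted p = 0.00114).

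In the chromosome 7 cluster at 29768552 to 30169750, 5 of 8 expressed genes were lower and none was higher. Zfp568, whose protein represses a placental transcript of Igf2 in the mouse, had 3.49, 4.30, 3.46 and 3.52 FPKM in the Esrp1-KO libraries, against 6.01, 5.02, 7.65 and 6.88 FPKM in the WT libraries (log2 fold change −0.65 ± 0.14 SE, adjusted p = 0.00594). Zfp790 averaged 1.24 ± 0.143 FPKM in Esrp1-KO and 2.46 ± 0.395 FPKM in WT, and Zfp940 averaged 1.18 ± 0.0479 FPKM in Esrp1-KO and 2.32 ± 0.470 FPKM in WT (SD, n = 4 each). In the cluster at 24081924 to 25227507, none of 5 passed, and all 5 had log2 fold changes below 0. The nearest to the threshold there, Zfp235, averaged 1.86 ± 0.703 FPKM in Esrp1-KO and 3.18 ± 0.997 FPKM in WT (adjusted p = 0.0742, and 0.0208 with the replicate number as a block; limma). In the cluster at 42473386 to 43618285, Zfp819 was the lower one of 4.

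In the remaining clusters with at least 3 expressed genes, calls were lower only. On chromosome 2 (150114406 to 150485091), Zfp120 had 12.8, 10.7, 11.6 and 13.0 FPKM in the Esrp1-KO libraries, against 26.1, 23.8, 21.5 and 22.8 FPKM in the WT libraries (log2 fold change −0.92 ± 0.12 SE, adjusted p = 0.000347). Zfp937 averaged 0.534 ± 0.209 FPKM in Esrp1-KO and 1.65 ± 0.376 FPKM in WT and shares 29.4% of its stretches. It reached the limit of 1 FPKM through the WT libraries alone, so the choice favours its fall. On chromosome 13 (67038596 to 67827002), Zfp759 and Zfp85 were lower, and Zfp85 averaged 4.65 ± 0.515 FPKM in Esrp1-KO and 8.20 ± 1.12 FPKM in WT, with 31.9% of its stretches shared. Zfp58 in the same cluster averaged 3.77 ± 0.345 FPKM in Esrp1-KO and 2.59 ± 0.740 FPKM in WT, without overlap, and did not pass (adjusted p = 0.0609, and 0.0413 with the replicate block; limma). With TMM, quantile or median-ratio scaling it passed, as higher (adjusted p from 0.0212 to 0.0252). On chromosome 10 (81704825 to 82241280), 2 of 3 were lower, Zfp938 averaging 6.44 ± 0.657 FPKM in Esrp1-KO and 9.78 ± 0.507 FPKM in WT. On chromosome 18 (23954692 to 24020810), Zfp24 was the lower one of 3.

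By protein sequence, translated from the annotation, 91 of the 150 genes matched a KRAB pattern. Of these 91, 43 (47.3%) were lower and 5 (5.49%) higher, with a median log2 fold change of −0.44. Of the 59 without a match, 11 (18.6%) were lower and 7 (11.9%) higher, with a median of −0.07. Among all genes tested, 23.1% were lower and 13.9% higher, so both shares without a match were below those of all genes. Scaling changed the higher calls among KRAB genes to 8 with TMM, quantile or median-ratio scaling, and the replicate block also gave 8. The pattern was revised with these fold changes in view, in 5 versions. Under the other 4, which took 71 to 93 genes as KRAB, 46.4% to 47.9% of KRAB genes and 17.5% to 25.3% of the others were lower. Among genes with both group means at 1 FPKM or more, 37 of 80 KRAB genes and 8 of 52 others were lower. No test was made between the classes.

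Position and KRAB class overlap, since 74 of the 91 KRAB genes lay in clusters. KRAB genes were lower in 34 of 74 (45.9%) within clusters and in 9 of 17 (52.9%) outside them. Genes without the pattern were lower in 3 of 12 (25%) within clusters and in 8 of 47 (17%) outside. Of all genes tested, 23.1% were lower. The median number of fingers was 12 in KRAB genes and 5 in the others, with 0 to 27 over all 150. It was 11 in lower, 6.5 in higher and 11 in not called genes. Of 26 genes with over 20% of their stretches shared, 9 were lower and 4 higher, and of the other 124, 45 (36.3%) were lower and 8 higher.

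**Figure D4:**
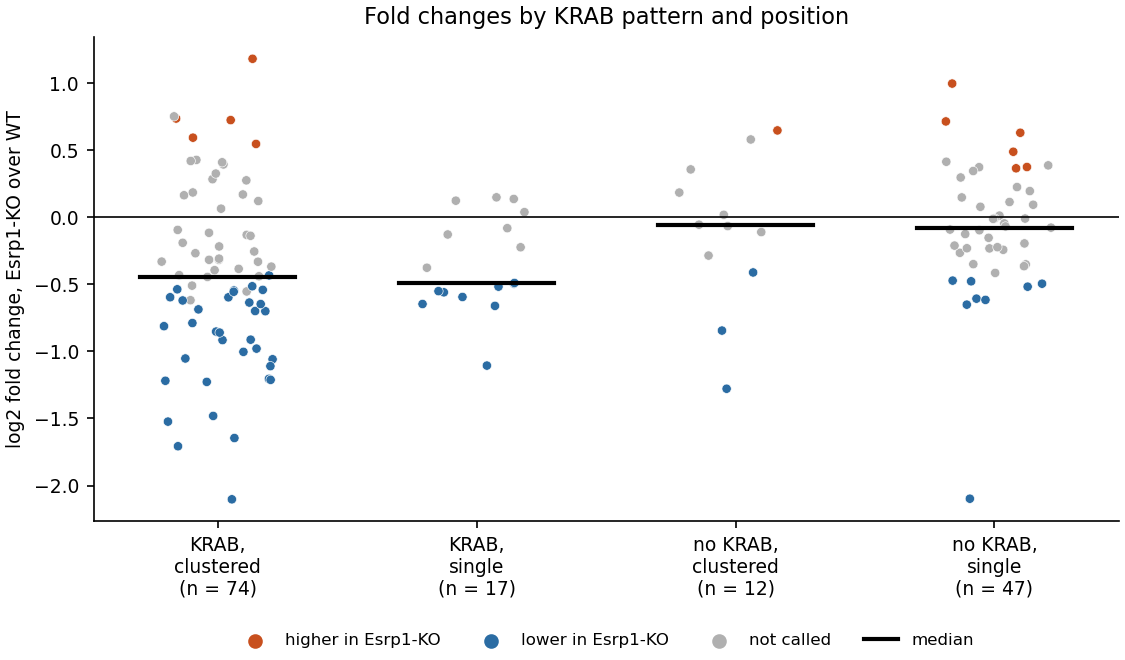
log2 fold change (Esrp1-KO over WT) of each of the 150 genes by KRAB pattern and by position in or outside a cluster; bars are medians and the sideways spread of points carries no value. The medians of both KRAB groups lie near −0.44 and −0.49, and those of the groups without KRAB near −0.06 and −0.08.

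KRAB proteins listed for silencing of retroviruses or imprinted regions had 9 expressed genes, 5 of them lower and none higher, beside 23.1% lower among all genes tested. Without Zfp819 and Zfp809, whose Esrp1-KO means lay under 1 FPKM, this was 3 of 7. The 5 were Zfp819, Zfp961, Zfp568 and Zfp600 above, and Zfp809, whose protein binds the proline tRNA primer site of mouse leukaemia proviruses. Zfp809 had 0.888, 0.678, 0.613 and 0.442 FPKM in the Esrp1-KO libraries, against 1.61, 0.932, 1.14 and 2.06 FPKM in the WT libraries (log2 fold change −0.54 ± 0.17 SE, adjusted p = 0.0311). Its groups were close, and the call was lost without Esrp1-KO replicate 2, 3 or 4 or WT replicate 1 or 4 (adjusted p up to 0.0852) and with quantile normalization (adjusted p = 0.0755). Zfp445, which maintains imprints, averaged 6.59 ± 1.11 FPKM in Esrp1-KO and 5.99 ± 1.26 FPKM in WT, with no call. Zfp932 averaged 8.84 ± 2.73 FPKM in Esrp1-KO and 9.98 ± 4.24 FPKM in WT, and Zfp78 averaged 3.18 ± 0.457 FPKM in Esrp1-KO and 4.19 ± 0.239 FPKM in WT, also with no call.

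Among 7 expressed genes for RNA binding, splicing or translation, 2 were higher and 1 was lower, where 13.9% and 23.1% of all genes tested were. Without Zfp346, which reached the limit through the Esrp1-KO libraries, 1 of 6 was higher. Besides Zfp346, Zfp598, a ubiquitin ligase that acts on collided ribosomes, had 3.37, 6.46, 4.62 and 2.88 FPKM in the Esrp1-KO libraries, against 2.10, 2.63, 2.45 and 2.19 FPKM in the WT libraries (log2 fold change 0.63 ± 0.20 SE, adjusted p = 0.0307). Zfp830, a nuclear protein found with splicing factors, had 11.6, 16.4, 16.1 and 14.2 FPKM in the Esrp1-KO libraries, against 23.2, 22.4, 23.8 and 23.9 FPKM in the WT libraries (log2 fold change −0.65 ± 0.13 SE, adjusted p = 0.00369), and its groups did not overlap. Zfp638 averaged 13.7 ± 1.44 FPKM in Esrp1-KO and 13.7 ± 0.955 FPKM in WT and did not pass.

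Of the 2 genes listed as partners of the chromatin reader ZMYND8, a list that need not be complete, 1 was lower. Among all genes tested, 23.1% were lower. Zfp592 had 18.01, 14.2, 16.5 and 18.6 FPKM in the Esrp1-KO libraries, against 27.6, 20.4, 20.7 and 26.7 FPKM in the WT libraries (log2 fold change −0.47 ± 0.15 SE, adjusted p = 0.0292). Its call was lost without Esrp1-KO replicate 2 or 3 or WT replicate 1 or 4 (adjusted p up to 0.0848) and under all 3 scalings (up to 0.0716). Zfp687, at 2.86 ± 1.84 FPKM in Esrp1-KO and 1.74 ± 0.123 FPKM in WT, did not pass, and Esrp1-KO replicate 1 alone stood at 5.50 FPKM. No call was made for Zfp207, which serves the spindle and kinetochores (23.5 ± 3.07 FPKM in Esrp1-KO and 25.7 ± 2.83 FPKM in WT). Nor was one made for the embryo and pluripotency genes Zfp296 (15.4 ± 4.38 FPKM in Esrp1-KO and 15.6 ± 5.38 FPKM in WT) and Zfp281. The promoter-binding genes Zfp143, Zfp148, Zfp131 and Zfp410 and the ligases Zfp91 and Zfp451 had adjusted p between 0.0848 and 0.797.

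Among partners of KRAB proteins in repression, more genes were higher than lower. Of 37 genes listed (TRIM28 and its complexes, heterochromatin and DNA methylation factors), 28 were tested, 10 were higher and 2 lower, with a median log2 fold change of 0.23; among all genes tested 13.9% were higher and 23.1% lower. Trim28, the corepressor that KRAB boxes bind, had 17.99, 16.8, 13.8 and 15.1 FPKM in the Esrp1-KO libraries, against 10.2, 9.29, 13.0 and 12.1 FPKM in the WT libraries (log2 fold change 0.48 ± 0.14 SE, adjusted p = 0.0240). Its call was lost without WT replicate 1 or 2 (adjusted p up to 0.0671). Setdb1, the histone H3 methyltransferase recruited by TRIM28, averaged 7.12 ± 0.980 FPKM in Esrp1-KO and 8.87 ± 0.883 FPKM in WT and did not pass (adjusted p = 0.117). Hdac2, a deacetylase of the NuRD complex, averaged 37.9 ± 5.79 FPKM in Esrp1-KO and 19.7 ± 1.69 FPKM in WT (log2 fold change 0.90 ± 0.14 SE, adjusted p = 0.000831). Uhrf1, which recruits the maintenance DNA methyltransferase, averaged 88.8 ± 11.3 FPKM in Esrp1-KO and 50.04 ± 6.61 FPKM in WT (adjusted p = 0.00155). Cbx1, the heterochromatin protein HP1 beta, averaged 19.4 ± 4.18 FPKM in Esrp1-KO and 11.2 ± 0.975 FPKM in WT, and Sumo3 averaged 18.8 ± 3.07 FPKM in Esrp1-KO and 10.3 ± 1.33 FPKM in WT. The 2 that fell were the chromatin remodellers Smarcad1, at 5.04 ± 0.633 FPKM in Esrp1-KO and 8.72 ± 0.197 FPKM in WT (adjusted p = 0.00142), and Atrx, at 39.5 ± 3.78 FPKM in Esrp1-KO and 61.0 ± 4.36 FPKM in WT (adjusted p = 0.00285).

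**Figure D5:**
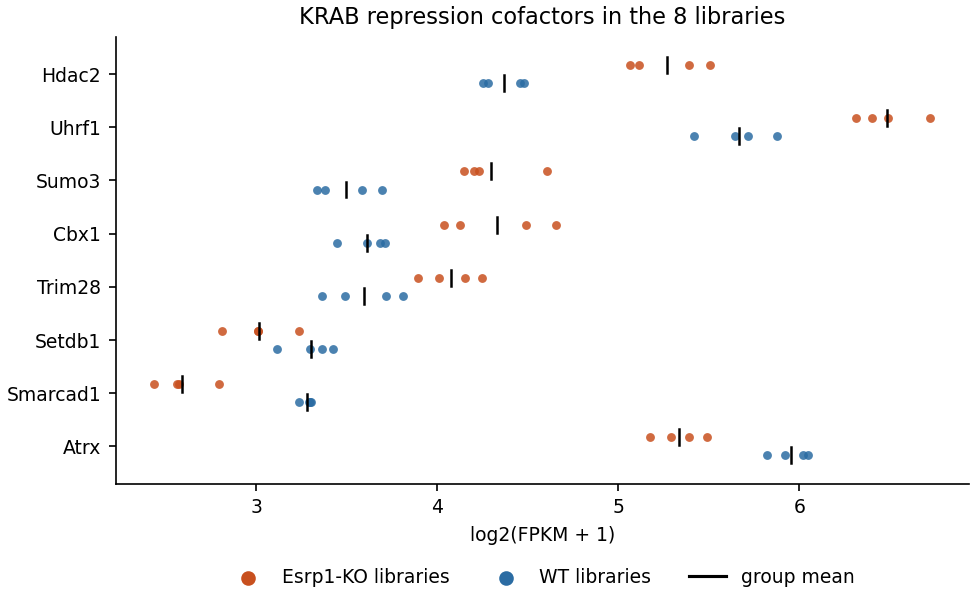
log2(FPKM + 1) of 8 KRAB repression cofactors in every library, Esrp1-KO above WT in each row; bars are group means, and the axis does not start at 0. Hdac2, Uhrf1, Sumo3, Cbx1 and Trim28 lie to the right in Esrp1-KO, Smarcad1 and Atrx to the left, and the groups of Setdb1 overlap.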

How the data were processed

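The FPKM values per gene were deposited by the authors, 1 table per library with 24860 genes; per the labels' protocols, 15 lysed oocytes per tube were amplified by Smart-seq2. The submitters' processing notes name GRCm38; the aligner, the annotation release and how reads were counted are not given in the sources used. Gene symbols, positions, exon lengths and coding sequences came from GENCODE M21 by Ensembl ID. FPKM times exon length came out as whole reads, within 0.02 reads, for 90.0% to 90.6% of values per library, which gave the inferred read totals.

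The 8021 genes averaging 1 FPKM or more were fitted with limma 3.58.1 in R 4.3.3 on log2(FPKM + 1), with a mean-variance trend and genotype alone in the model; p-values are two-sided and Benjamini-Hochberg adjusted, and a fold change on this scale understates that of low genes. SD, SE and n refer to 4 libraries per genotype. The test was checked on simulated data. Libraries with the same replicate number deviated together (correlations 0.226 to 0.317), and libraries with different numbers were not compared. The labels do not say what the numbers share, so the main fit and its p-values are unpaired. A fit with the replicate number as a block was an alternative. Other alternatives were pseudocounts, filters, scalings, voom on reads, replicate subsets and cluster distances of 200 kb and 1 Mb.

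The Zfp genes, the gene lists and the tests were chosen with earlier results of these data known. Named genes were the 12 largest rises and falls without overlap, the 6 most abundant, the 3 smallest p in each cluster with at least 3, listed roles, and those next to the 1 FPKM limit; of cofactors, the 6 smallest p with Trim28 and Setdb1. Zinc fingers and KRAB boxes were found as sequence patterns in translated M21 coding sequences, in place of the RefSeq proteins that had been planned. The KRAB pattern is the last of 5 versions, revised with fold changes in view; one looser version took in SCAN-type genes such as Zfp24. Shared sequence is the percent of a gene's 50-base stretches found in transcripts of other genes. Promoters are RefSeq's (GRCm38.p6), aligned with Biopython 1.88.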

Additional observations from a re-analysis of the deposited data

Results flagged for a closer look

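Among 158 sets of 4 libraries (genes named, by genotype), 9 held a library set apart from the other 3 by more than Dixon's critical value. About 1 in 20 sets would do so by chance. Of genes below the expression limit, Zfp622, a factor of ribosome assembly, stood at 7.33 FPKM in WT replicate 1 and at 0 to 0.0127 FPKM in the other WT libraries, with 0.0498 to 0.276 FPKM in Esrp1-KO. Of immune markers, Esrp1-KO replicate 3 held Lyz2 at 5.44 FPKM, against 0 to 0.728 FPKM in the other Esrp1-KO libraries, and Cd68 at 3.50 FPKM, against 0.541 to 0.639 FPKM. In called genes, the libraries apart were Esrp1-KO replicate 2 for Zfp568 at 4.30 FPKM, against 3.46 to 3.52 FPKM in the other libraries of its genotype, and Esrp1-KO replicate 4 for Zfp992 at 0.109 FPKM, against 0.279 to 0.300 FPKM in the other libraries of its genotype. They were also WT replicate 2 for Zfp947 at 1.75 FPKM, against 2.41 to 2.48 FPKM in the other libraries of its genotype, and Esrp1-KO replicate 1 for Sumo3 at 23.3 FPKM, against 16.7 to 17.7 FPKM in the other libraries of its genotype. In genes not called, they were Esrp1-KO replicate 2 for Zfp638 at 15.8 FPKM, against 12.9 to 13.1 FPKM in the other libraries of its genotype, and WT replicate 2 for Zfp932 at 16.3 FPKM, against 7.31 to 8.38 FPKM in the other libraries of its genotype.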

How the results depend on the processing

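The median log2 fold change of the 150 genes, −0.27, kept its sign in every alternative. It was −0.37 with a pseudocount of 0.1, −0.37 with limma voom on recovered reads, −0.17 with TMM scaling, −0.16 with quantile normalization and −0.17 with median-ratio scaling. Without a filter on low values, 4.12% of all 24860 listed genes were higher and 8.07% lower. Most of these lay under the 1 FPKM limit that the 150 had passed, so they are an unlike background. Of the 150 in this fit, 5 were higher and 42 lower. Of the higher ones, 1 was outside clusters and 1 without the KRAB pattern, and 11 outside clusters were lower. With a mean of at least 5 FPKM, which left 66 of the genes, 3 were higher and 27 lower, beside 15.6% and 23.2% of all genes. Of these, clusters held 0 and 19, genes outside clusters 3 and 8, KRAB genes 0 and 21, and genes without the pattern 3 and 6. With TMM or median-ratio scaling alike, 10 clustered and 8 KRAB genes were higher, and 7 without the pattern were lower. With quantile normalization, 19 were higher (11 clustered, 8 KRAB, 11 without), and 10 outside clusters and 7 without the pattern were lower. With replicates 1 and 4 alone, genes outside clusters gave 3 higher and 8 lower, and genes without the pattern 3 and 7. With replicates 2 and 3 alone, 3 were higher and 27 lower. Of these, 2 of the higher were clustered, genes outside clusters gave 1 and 2, KRAB genes 2 and 24, and genes without the pattern 1 and 3; cofactors gave 6 and 0. With the stricter KRAB pattern, 20 genes without it were lower.

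Leaving out each library in turn gave 8 to 11 higher and 44 to 57 lower genes, beside 11.2% to 13.9% and 18.9% to 22.6% of all genes tested. Outside clusters it gave 3 to 5 higher and 11 to 16 lower, and without the KRAB pattern 3 to 6 higher and 6 to 11 lower. With the replicate number as a block, 15 were higher and 58 lower, beside 17.2% and 25.3% of all genes, and KRAB genes gave 8 higher. Among the genes named, the block changed the calls of Zfp58 and Zfp235 and of no other. The alternatives on KRAB counts, and counts limited to genes with both group means at 1 FPKM or more, were added after the data were seen. In simulated data with 4 libraries per genotype, 86.6% of 2-fold and 32.8% of 1.5-fold changes were recovered, so smaller changes were often not detectable at this number and spread of libraries; the part of depth was not tested. Reads shared between close copies, and the lack of strand in Smart-seq2 libraries, limit single genes in clusters.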
